A study of Mus musculus with 16 samples.

Results

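Cholesterol cannot be broken down by most cells of the nervous system, so surplus sterol is exported or stored. The liver X receptors (LXRs) are nuclear receptors that bind oxysterols, the oxidised forms of cholesterol, pair with a retinoid X receptor on DNA, and switch on genes for sterol export. In the spinal cord this system is used by astrocytes, which make and lipidate apolipoprotein particles, and by microglia and macrophages, which take up myelin debris. The 10 genes described here comprise both LXR genes (Nr1h2, Nr1h3), a pair of efflux transporters (Abca1, Abcg1), a pair of apolipoproteins (Apoe, Apoc1), further LXR target genes (Pltp, Mylip, Lpcat3) and the cholesterol esterification enzyme Soat1. They were taken by gene symbol from the 24411 symbols of the count and TPM tables. All 10 were found and all 10 were among the 16091 genes tested, namely those whose mean TPM exceeded 1 in any group. TPM is a transcript level scaled to library depth and corrected for gene length, so it allows genes to be compared with each other.

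The RNA came from spinal cords of female C57BL/6J mice, of which 7 were SCI + Atorvastatin, 7 were SCI + Vehicle and 2 were Uninjured Control animals. Injured mice received a 0.25 mm lateral compression of the thoracic cord at 12 weeks of age. From 2 weeks after injury they were injected daily for 4 weeks with atorvastatin at 10 mg/kg, an inhibitor of HMG-CoA reductase in cholesterol synthesis, or with its vehicle of dimethyl sulfoxide, polyethylene glycol, Tween and saline. At 6 weeks after injury a 5 mm piece of cord around the lesion, or the matching piece of an uninjured and untreated cord, was taken. The labels give 12 weeks of age for the uninjured mice too, whereas the study's methods give an older age for them at collection, still younger than the injured mice were by then. Age and injury therefore cannot be told apart. No uninjured mice received atorvastatin, and both comparisons with uninjured cord use the same 2 Uninjured Control mice.

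Libraries held 14823292 to 25579826 counts on genes. The Uninjured Control libraries stood apart. Among genes that averaged between 200 and 500 counts over the SCI mice, 13.9% and 17.6% were at 0 in Uninjured Control replicates 1 and 2, against at most 0.247% in any SCI mouse. The same libraries held liver transcripts, with summed TPM of 6772 and 1139 over 10 liver genes against at most 16.01 in any SCI mouse. Markers of neurons and oligodendrocytes, which define spinal cord, were above 0 in every library. Microglia or macrophage markers had a summed TPM of 171 and 194 in Uninjured Control mice, 1424 to 2155 with vehicle and 1764 to 2537 with atorvastatin, and 9 and 10 of 10 markers were higher in every mouse of the SCI groups. Cd68 and Ptprc were at 0 in both Uninjured Control mice, and Itgam, P2ry12, Tmem119 and Tyrobp were at 0 in 1 of them. Astrocyte markers summed to 3482 and 4953, against 8533 to 10668 and 9445 to 10760, with 5 of 8 markers higher in every SCI mouse of each group. Of all genes tested, 26.3% with vehicle and 32.3% with atorvastatin were higher in every mouse than in both uninjured mice. In bulk cord, fewer cells of a type, less RNA per cell and transcripts missed in these uninjured libraries cannot be told apart. The part of these marker differences in the results for the 10 genes was not tested.

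Chronic injury went with higher transcript levels of most of the 10 genes. Between SCI + Vehicle and Uninjured Control mice, 8 of the 10 genes were called, with 6 higher (Abca1, Abcg1, Apoe, Mylip, Lpcat3, Soat1) and 2 lower (Apoc1, Nr1h2). To be called, a gene had to differ by more than 1.25-fold with an adjusted p from edgeR (Benjamini-Hochberg) below 0.05. Of all genes tested, 29.4% were called, 19.8% as higher and 9.55% as lower. In SCI + Atorvastatin vs. Uninjured Control, 9 of the 10 were called, the same 6 and Pltp as higher and the same 2 as lower, where 38.9% of all genes tested were called, 24.9% as higher and 14% as lower. The median log2 fold change of the 10 genes was 1.17 with vehicle and 1.32 with atorvastatin, and that of all genes tested was 0.17 and 0.21. TPM ranges of the SCI + Vehicle and Uninjured Control groups did not overlap for 6 genes that were higher and 1 that was lower, as for 26.3% and 6.67% of all genes tested. With atorvastatin this held for 7 higher genes and 1 lower gene, against 32.3% and 8.91%.

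**Figure D1:**
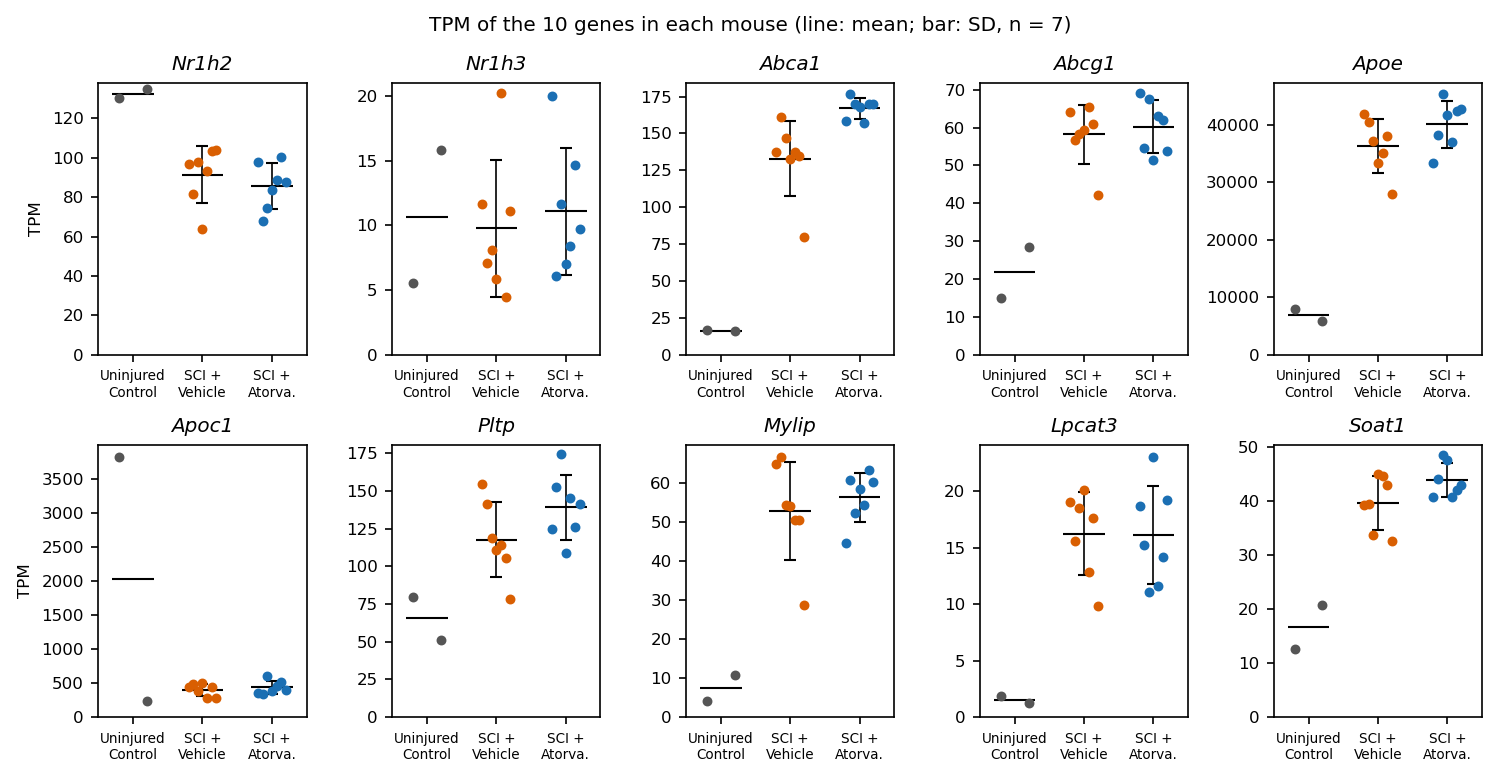
TPM of each of the 10 genes (y axis, linear, a scale of its own in each panel) in every mouse of the 3 groups (x axis), with a line at the mean and a bar of 1 SD for the groups of 7. Abca1, Abcg1, Apoe, Mylip, Lpcat3 and Soat1 lay above both Uninjured Control mice in all 14 SCI mice, Nr1h2 lay below them, and Apoc1 was 3813 and 238 in the Uninjured Control mice.

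The receptors themselves were not among the genes that rose. Nr1h2 encodes LXR beta, the form found in most tissues (chromosome 7 of GRCm38, 44549616 to 44553951, minus strand). Its TPM was 130 and 135 in the Uninjured Control mice, 63.6 to 104 with vehicle (median 96.7) and 67.8 to 100.2 with atorvastatin (median 87.5). Every injured mouse was therefore below both uninjured mice. For Nr1h2 the log2 fold change was -0.70 (standard error, SE, 0.180, adjusted p = 0.0147) with vehicle and -0.79 (SE 0.124, adjusted p = 0.000761) with atorvastatin.

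Nr1h3 encodes LXR alpha, the form enriched in macrophages and liver (chromosome 2, 91184061 to 91202834, minus strand), and was the least abundant of the 10 genes by mean TPM in both SCI groups. It had TPM of 5.51 and 15.8 in the Uninjured Control mice, 4.45 to 20.2 with vehicle (median 8.06) and 6.08 to 19.97 with atorvastatin (median 9.73). These ranges overlapped. Its log2 fold change was -0.85 (SE 0.494, adjusted p = 0.225) with vehicle and -0.56 (SE 0.412, adjusted p = 0.316) with atorvastatin, so neither was called. Counts and TPM ranked the uninjured mice in opposite order for this gene: replicate 1 had 350 counts and the lower TPM, and replicate 2 had 213 counts and the higher TPM. The TPM given per CPM, the counts scaled to library depth alone, was 0.318 in Uninjured Control replicate 1 and 0.901 to 1.81 in the SCI mice. Without Uninjured Control replicate 2, Nr1h3 was called lower with atorvastatin (log2 fold change -0.94). That fit left only Uninjured Control replicate 1, the library with a summed liver TPM of 6772. The part of liver transcripts in the Nr1h3 result was not tested. The TPM ratio of Nr1h3 to Nr1h2 was 0.0423 and 0.117 in the Uninjured Control mice, 0.0429 to 0.217 with vehicle and 0.0835 to 0.204 with atorvastatin.

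Both transporters rose in both SCI groups. Abca1 moves cholesterol and phospholipid to lipid-poor apolipoproteins (chromosome 4, 53030787 to 53159895, minus strand). It had TPM of 16.4 and 16.1 in the Uninjured Control mice, 79.97 to 161 with vehicle (median 137) and 157 to 177 with atorvastatin (median 170). Levels in all SCI mice were far above those of uninjured mice, and SCI + Vehicle replicate 7, at 79.97, lay well below the other 6 vehicle mice, which began at 132. The mean was 133 ± 25.3 (SD, n = 7) in SCI + Vehicle and 167 ± 7.10 (SD, n = 7) in SCI + Atorvastatin mice. For Abca1 the log2 fold change was 3.00 (SE 0.241, adjusted p = 3.84e-05) with vehicle and 3.33 (SE 0.117, adjusted p = 8.85e-07) with atorvastatin. Abca1 was at 8.28% and 9.63% of the summed microglia or macrophage marker TPM in uninjured cord, 5.62% to 8.48% with vehicle and 6.69% to 9.41% with atorvastatin, a share computed after its levels were seen. These shares overlapped between injured and uninjured mice. Relative to the summed astrocyte markers it was 0.324% and 0.472%, against 0.880% to 1.61% and 1.55% to 1.84%, without overlap.

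Abcg1 passes cholesterol on to particles that already carry lipid (chromosome 17, 31057675 to 31117988, plus strand). It had TPM of 14.9 and 28.5 in the Uninjured Control mice, 42.2 to 65.6 with vehicle (median 59.4) and 51.4 to 69.2 with atorvastatin (median 62.0). The groups did not overlap. For Abcg1 the log2 fold change was 1.38 (SE 0.200, adjusted p = 0.000742) with vehicle and 1.46 (SE 0.183, adjusted p = 0.000211) with atorvastatin. The TPM ratio of Abca1 to Abcg1 was 1.10 and 0.563 in the Uninjured Control mice, 1.90 to 2.84 with vehicle and 2.29 to 3.27 with atorvastatin. The order of the 2 transporters thus differed between uninjured replicate 2 and all SCI mice, in which Abca1 had the higher TPM.

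Sequence upstream of the start is shown for Abca1, Apoe and Mylip, which had the largest rises among the genes whose upstream window lies outside an annotated transcript. The 250 bases come from the RefSeq table of GRCm38.p6 and read 5′ to 3′ on the gene's strand. Capitals mark the stretch that came closest to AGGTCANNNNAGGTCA, the direct repeat spaced by 4 bases that LXR pairs bind.
Abca1 (chr4:53159896-53160145, minus strand): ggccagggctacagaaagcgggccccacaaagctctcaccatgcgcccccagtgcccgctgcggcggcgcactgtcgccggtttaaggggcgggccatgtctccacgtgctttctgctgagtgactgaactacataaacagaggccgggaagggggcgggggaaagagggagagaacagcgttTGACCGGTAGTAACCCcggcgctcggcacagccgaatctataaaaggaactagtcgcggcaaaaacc
Apoe (chr7:19699189-19699438, minus strand): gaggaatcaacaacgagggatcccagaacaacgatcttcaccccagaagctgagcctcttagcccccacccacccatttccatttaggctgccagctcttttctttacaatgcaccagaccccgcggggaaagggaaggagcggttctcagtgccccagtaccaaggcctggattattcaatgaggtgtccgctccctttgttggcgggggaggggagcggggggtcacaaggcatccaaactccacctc
Mylip (chr13:45389492-45389741, plus strand): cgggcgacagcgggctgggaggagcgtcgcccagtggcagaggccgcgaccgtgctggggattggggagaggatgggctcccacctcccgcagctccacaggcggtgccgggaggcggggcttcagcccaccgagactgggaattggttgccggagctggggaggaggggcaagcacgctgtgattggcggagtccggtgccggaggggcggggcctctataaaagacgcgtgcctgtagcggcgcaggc
Both strands were searched, and the capitals in Abca1 match on the strand opposite to the gene with 3 mismatches in the 12 fixed bases, starting 67 bases before the start. That limit was chosen after the best matches had been seen. Windows were given for 8 of the 10 genes (11 windows), not for Abcg1 and Apoc1, and Abca1 was the only one of the 8 with such a match. Of all 32851 windows of the same length, 18.5% hold a match with up to 3 mismatches and 2.57% one with up to 2. The match is a description of these letters and not a binding site shown by these data.

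Apoe rose in both SCI groups, and Apoc1 was called lower in both, with a direction that rested on 1 uninjured mouse. Apoe encodes apolipoprotein E, the main lipid carrier made in the central nervous system (chromosome 7, 19696109 to 19699188, minus strand). TPM of Apoe were 7958 and 5888 in the Uninjured Control mice, 27860.0 to 41870 with vehicle (median 37123) and 33257 to 45327 with atorvastatin (median 41672). Its rank among all genes by TPM was 1 or 2 in every SCI mouse and 4 in both uninjured mice, and held 2.79% to 4.53% of all TPM in the SCI mice against 0.796% and 0.589%. For Apoe the log2 fold change was 2.18 (SE 0.207, adjusted p = 8.93e-05) with vehicle and 2.34 (SE 0.200, adjusted p = 3.11e-05) with atorvastatin. Its share of the summed astrocyte markers (TPM of Apoe as a percent of that sum) was 119% and 229% in uninjured cord, 307% to 491% with vehicle and 326% to 449% with atorvastatin. Relative to the summed microglia or macrophage markers the direction was opposite. That share was 3037% and 4666% in uninjured cord, 1872% to 2261% with vehicle and 1787% to 2339% with atorvastatin.

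Apoc1, which encodes a small apolipoprotein made in liver and in macrophages, lies 3.448 kb from Apoe (chromosome 7, 19689481 to 19692660, minus strand). Its counts were 7420 and 469 in the Uninjured Control mice, 514 to 985 with vehicle (median 780) and 676 to 1117 with atorvastatin (median 824). In TPM these were 3813 and 238, 276 to 497, and 344.1 to 610. Uninjured Control replicate 1 was thus above all SCI mice and replicate 2 below all of them. For Apoc1 the log2 fold change was -2.51 (SE 0.603, adjusted p = 0.0105) with vehicle and -2.35 (SE 0.618, adjusted p = 0.0126) with atorvastatin. Without Uninjured Control replicate 1 the direction turned, to 0.70 (adjusted p = 0.0965) with vehicle and to 0.86 (adjusted p = 0.0234, called higher) with atorvastatin. All 10 liver markers were lower in every SCI mouse than in both uninjured mice. Of all genes tested, 6.67% with vehicle and 8.91% with atorvastatin were lower in every mouse. The part of liver transcripts in the Apoc1 result was not tested. The TPM ratio of Apoe to Apoc1 was 2.09 and 24.8 in the Uninjured Control mice, 66.8 to 124 with vehicle and 74.3 to 111 with atorvastatin.

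**Figure D2:**
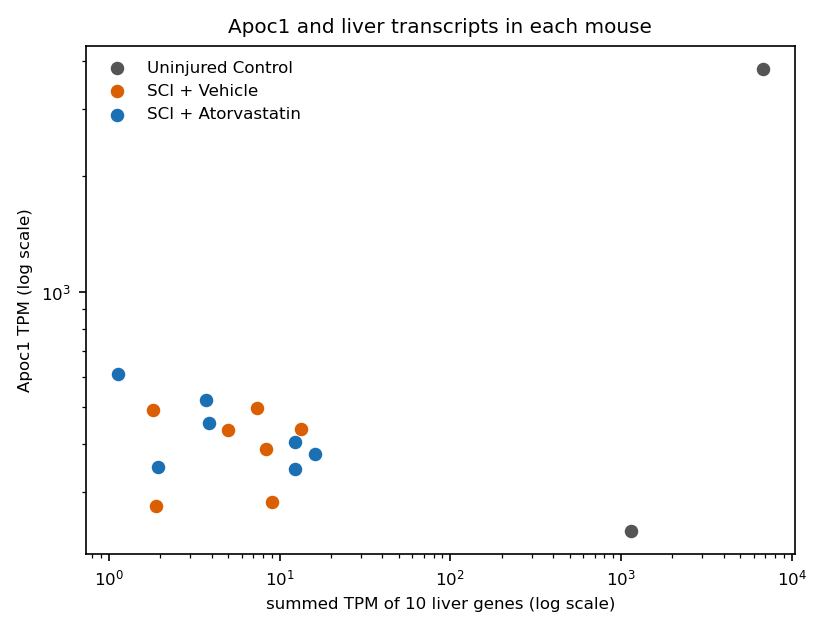
TPM of Apoc1 (y axis, log scale) against the summed TPM of 10 liver genes (x axis, log scale), 1 point for each of the 16 mice, coloured by group. Uninjured Control replicate 1 had the highest value on both axes (3813 and 6772), replicate 2 had 238 and 1139, and all SCI mice had liver sums of at most 16.01 with Apoc1 between 276 and 610.

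Among the further LXR targets, Lpcat3 and Mylip rose in both SCI groups. Lpcat3 encodes an enzyme that puts polyunsaturated fatty acids into membrane phospholipids (chromosome 6, 124663027 to 124704418, plus strand). It had TPM of 1.85 and 1.25 in the Uninjured Control mice, 9.88 to 20.1 with vehicle (median 17.7) and 11.1 to 23.0 with atorvastatin (median 15.3). It was the lowest of the 10 genes in uninjured cord, with 37 and 25 counts, and no SCI mouse came near that level. Its mean counts were 429 with vehicle and 421 with atorvastatin. Among genes averaging 200 to 500 counts in SCI mice, 13.9% and 17.6% were at 0 in the uninjured libraries. The part of such losses in the Lpcat3 result was not tested. For Lpcat3 the log2 fold change was 3.68 (SE 0.477, adjusted p = 0.000395) with vehicle and 3.60 (SE 0.451, adjusted p = 0.000209) with atorvastatin. Its exons share 334 bases with those of Emg1 on the opposite strand. Emg1 had TPM of 15.8 and 49.8 in uninjured cord and 16.6 to 51.3 in SCI mice, and the strand setting of the counting is not given in the sources used here.

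Mylip encodes a ubiquitin ligase that LXR induces and that limits the uptake of lipoproteins (chromosome 13, 45389742 to 45412022, plus strand). TPM of Mylip were 4.09 and 10.8 in the Uninjured Control mice, 28.8 to 66.7 with vehicle (median 54.1) and 44.8 to 63.3 with atorvastatin (median 58.6). Both uninjured mice were below all SCI mice. For Mylip the log2 fold change was 2.27 (SE 0.460, adjusted p = 0.00438) with vehicle and 2.45 (SE 0.402, adjusted p = 0.000949) with atorvastatin. Without Uninjured Control replicate 1 these were 1.64 and 1.81, without replicate 2 they were 3.46 and 3.63, and the calls remained.

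Pltp encodes phospholipid transfer protein, which remodels lipoprotein particles (chromosome 2, 164839518 to 164857711, minus strand). It had TPM of 79.7 and 51.4 in the Uninjured Control mice, 78.3 to 155 with vehicle (median 114) and 109 to 174 with atorvastatin (median 141). SCI + Vehicle replicate 7 overlapped with the uninjured mice and all others lay above them. For Pltp the log2 fold change was 0.55 (SE 0.296, adjusted p = 0.193, not called) with vehicle and 0.84 (SE 0.238, adjusted p = 0.0184, called) with atorvastatin. The difference between the treatments themselves had an adjusted p of 0.733. The calls turned on single uninjured mice, and with vehicle also on the method, as limma called Pltp higher with all mice kept. Without Uninjured Control replicate 1 Pltp was called with vehicle (0.99, adjusted p = 0.0258), and without replicate 2 it was not called with atorvastatin (0.49, adjusted p = 0.0684). Its exons share 495 bases with Ctsa on the opposite strand, whose TPM was 37.0 and 40.2 in uninjured cord and 110 to 171 in SCI mice.

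Soat1 encodes the enzyme that esterifies cholesterol for storage in lipid droplets (chromosome 1, 156424525 to 156474331, minus strand). It had TPM of 12.6 and 20.7 in the Uninjured Control mice, 32.6 to 45.0 with vehicle (median 39.3) and 40.8 to 48.5 with atorvastatin (median 42.9). All SCI mice were above both uninjured mice. For Soat1 the log2 fold change was 0.96 (SE 0.154, adjusted p = 0.00127) with vehicle and 1.17 (SE 0.115, adjusted p = 5.71e-05) with atorvastatin. The TPM ratio of Soat1 to Abca1 was 0.765 and 1.29 in the Uninjured Control mice, 0.229 to 0.407 with vehicle and 0.247 to 0.286 with atorvastatin. The ratio was lower in every SCI mouse than in both uninjured mice.

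By mean TPM, the order in both SCI groups was Apoe, Apoc1, Abca1, Pltp, Nr1h2, Abcg1, Mylip, Soat1, Lpcat3 and Nr1h3. Ranges of neighbours overlapped except between Apoe and Apoc1, Apoc1 and Abca1, and Soat1 and Lpcat3, and with atorvastatin also between Pltp and Nr1h2. In uninjured cord the order was Apoe, Apoc1, Nr1h2, Pltp, Abcg1, Soat1, Abca1, Nr1h3, Mylip and Lpcat3. The values of Abcg1 and Soat1 overlapped there, as did those of Soat1 and Abca1 and those of Nr1h3 and Mylip. Abca1 thus had rank 3 among the 10 genes in injured cord and rank 7 in uninjured cord.

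**Figure D3:**
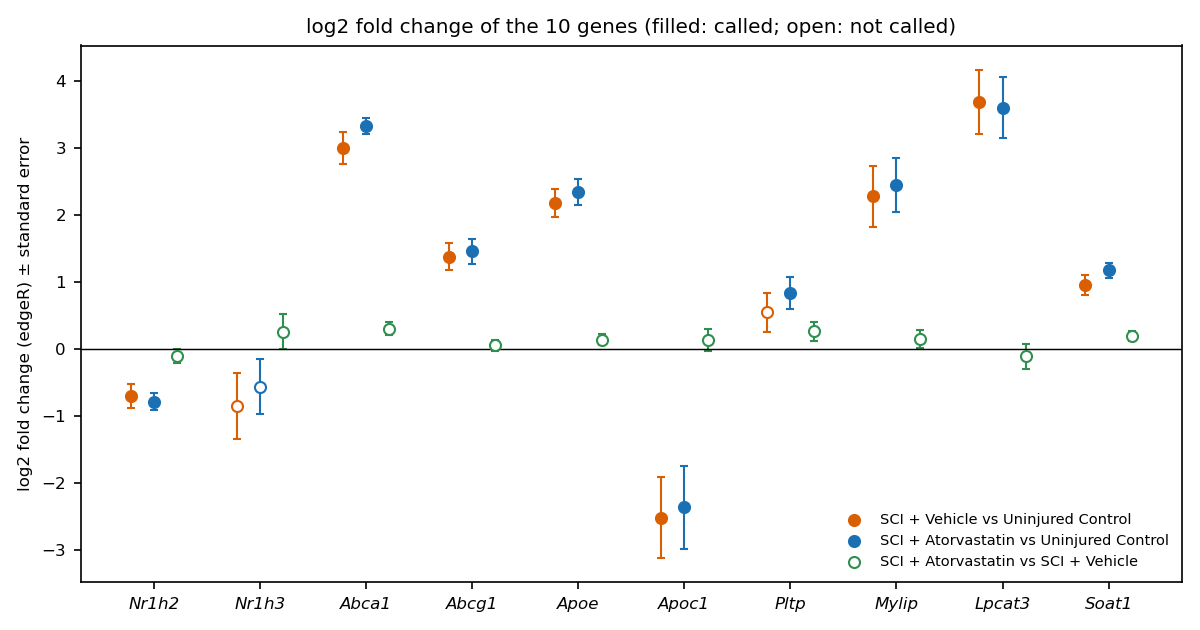
The log2 fold change from edgeR (y axis) of the 10 genes (x axis) in the 3 comparisons, with bars of 1 standard error, filled points for called genes and open points for the others. Both comparisons with the Uninjured Control group share its 2 mice. Lpcat3 and Abca1 were the highest at 3.68 and 3.00 with vehicle, and all points of SCI + Atorvastatin vs. SCI + Vehicle are open and lie between -0.11 and 0.31.

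Of 40 other genes of LXR signalling and sterol export, a list chosen with earlier results of these data known, 18 were called between vehicle and uninjured mice (12 higher, 6 lower) and 21 between atorvastatin and uninjured mice (16 higher, 5 lower). Over all genes tested 29.4% were called with vehicle (19.8% higher, 9.55% lower) and 38.9% with atorvastatin (24.9% higher, 14% lower). The median log2 fold change of the list was 0.35 and 0.38, and that of all genes tested was 0.17 and 0.21. Of 4 other ABC transporters (Abca2, Abca5, Abca7, Abcg4), edgeR called 0 in either comparison, and Abca2 and Abcg4 had an unadjusted p below 0.05 with atorvastatin. Their log2 fold changes there were -0.26 (adjusted p = 0.0860) and -0.55 (adjusted p = 0.0753). The count of 0 rested on both uninjured mice: in both comparisons Abca5 and Abca7 were called higher without Uninjured Control replicate 1, and Abcg4 was called lower without replicate 2.

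Among receptor partners and coregulators, 1 of 6 was called with vehicle and 2 of 6 with atorvastatin, against 29.4% and 38.9% of all genes tested. Rxra, the retinoid X receptor alpha that pairs with LXR, had TPM of 41.0 and 48.7 in the Uninjured Control mice, 21.9 to 40.5 with vehicle (median 32.5) and 30.3 to 38.4 with atorvastatin (median 31.8). All SCI mice were below the uninjured mice, with log2 fold changes of -0.54 (adjusted p = 0.0353) and -0.42 (adjusted p = 0.0336). Neither was called without Uninjured Control replicate 1 (-0.50 and -0.38, adjusted p = 0.0674 and 0.0716). Ncor1, a corepressor of unliganded LXR, was called higher with atorvastatin (0.39, adjusted p = 0.0232) and had a value of 0.34 (adjusted p = 0.0519) with vehicle. Without replicate 1 it was not called with atorvastatin (0.20, adjusted p = 0.183), and without replicate 2 it was called with vehicle (0.56, adjusted p = 0.00637).

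Of the enzymes that make or clear oxysterols, 2 of 4 were called higher and 1 lower in both comparisons, against 19.8% and 24.9% of all genes tested as higher and 9.55% and 14% as lower. Ch25h, cholesterol 25-hydroxylase, was at 0 counts in both uninjured mice, at 90 to 186 with vehicle and at 155 to 281 with atorvastatin. Computed against a limit of 3 counts per library, the rise was 43.2-fold in SCI + Vehicle mice and 63.5-fold in SCI + Atorvastatin mice. That limit covers counting error only. Of genes that averaged 200 to 500 counts over the SCI mice, 13.9% and 17.6% were at 0 in these uninjured libraries. These folds are therefore not lower bounds. Cyp27a1, sterol 27-hydroxylase, rose by log2 fold changes of 1.63 (adjusted p = 0.000862) and 1.84 (adjusted p = 0.000358). Its TPM was 0.55 and 7.98 in uninjured cord, 26.1 to 46.0 with vehicle and 31.6 to 49.2 with atorvastatin. The uninjured mice were thus far apart, and the TPM differed more than these fold changes from counts. Cyp46a1, the neuronal cholesterol 24-hydroxylase, had TPM of 53.8 and 69.2 in uninjured cord against 26.5 to 42.5 with vehicle and 22.3 to 39.5 with atorvastatin. Its log2 fold change was -0.84 (adjusted p = 0.0101) and -1.04 (adjusted p = 0.00170), and the summed TPM of 8 neuron markers was 3702 and 4510 in uninjured cord, 2676 to 3793 with vehicle and 2426 to 3054 with atorvastatin. The part of that difference in the Cyp46a1 result was not tested.

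In the group of apolipoproteins and lipoprotein enzymes or receptors, 3 of 7 were called higher and 1 lower in both comparisons, where 29.4% and 38.9% of all genes tested were called. Lpl, lipoprotein lipase, counted 2 and 274 reads in the uninjured mice and 1549 to 4832 in SCI mice, with log2 fold changes of 4.45 (SE 0.974, adjusted p = 0.00665) and 4.60 (SE 0.998, adjusted p = 0.00464). These sizes turned on single uninjured mice: they were 3.48 and 3.63 without replicate 1, and 10.34 and 10.49 without replicate 2, which left 2 counts on the uninjured side, and the calls remained. Apod and Clu, apolipoproteins D and J, rose less: Clu by 0.79 (adjusted p = 0.000521) and 0.87 (adjusted p = 0.000434), and Apod by 0.74 (adjusted p = 0.0234) and 0.97 (adjusted p = 0.00116). Without replicate 2 Apod was not called with vehicle (0.62, adjusted p = 0.0648). Apoa1, the main apolipoprotein of high-density lipoprotein and a liver product, counted 5805 and 1354 reads in the uninjured mice but no more than 43 in SCI mice. Apoc2 was at 0 counts in both uninjured mice and reached no more than 30 in SCI mice, so no fold is given.

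For lysosomal export, transfer and storage genes, 5 of 10 were called higher with vehicle and 6 with atorvastatin, and 2 and 1 were called lower (all genes tested, 19.8% and 24.9% higher, 9.55% and 14% lower). Npc2, which hands cholesterol to Npc1 in the lysosome, had TPM of 17.5 and 37.9 in uninjured cord, 68.9 to 86.7 with vehicle and 74.7 to 99.4 with atorvastatin. Plin2, a coat protein of lipid droplets, had 24.8 and 24.95, against 46.5 to 78.7 and 64.3 to 107. Neither gene overlapped between injured and uninjured mice, with log2 fold changes of 1.16 and 1.35 for Npc2 and of 1.39 and 1.64 for Plin2 (adjusted p between 0.000327 and 0.00263). Gramd1a and Gramd1b, which carry cholesterol from the plasma membrane to the endoplasmic reticulum, were also called higher (1.01 and 0.90 with vehicle), although the TPM of Gramd1b overlapped, with 42.5 and 69.1 in uninjured cord. Npc1 was called with atorvastatin (0.47, adjusted p = 0.0356) and Nceh1, a cholesteryl ester hydrolase, was called lower with vehicle (-0.42, adjusted p = 0.0379). Without Uninjured Control replicate 1 neither call was made (0.17, adjusted p = 0.273, and -0.24, adjusted p = 0.254). Without replicate 2 Npc1 was called with vehicle as well (0.75, adjusted p = 0.00466) and Nceh1 with atorvastatin (-0.44, adjusted p = 0.0107). Gramd1c, of the Gramd1a family, was at 0 counts in both uninjured mice. Computed against the same limit as for Ch25h, the rise was 29.2-fold with vehicle and 29.1-fold with atorvastatin. That limit covers counting error only, so these folds are not lower bounds either.

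Stard4, a soluble sterol carrier, fell in both comparisons, with log2 fold changes of -1.81 (adjusted p = 0.000834) and -1.95 (adjusted p = 0.000444). Lrp8, a receptor for apolipoprotein E, was called higher (0.72, adjusted p = 0.0473, and 0.78, adjusted p = 0.0190), and Lrp1, another lipoprotein receptor, with atorvastatin (0.42, adjusted p = 0.0378). Lrp8 was not called without Uninjured Control replicate 2 (0.35, adjusted p = 0.224, and 0.41, adjusted p = 0.0710), and without replicate 1 Lrp1 was not (0.38, adjusted p = 0.0630). Of 5 other LXR targets in the list, 1 was called higher with vehicle and 2 with atorvastatin, and 0 were called lower. Of all genes tested, 19.8% and 24.9% were called higher. Mertk, a receptor for engulfing dead cells, was called higher in both comparisons (1.07, adjusted p = 0.0441, and 1.18, adjusted p = 0.0149). Its values were 0.51 (adjusted p = 0.141, not called) and 0.62 (adjusted p = 0.0112) without replicate 1, and 1.99 and 2.09 without replicate 2. Srebf1, which drives fatty acid synthesis, was called higher with atorvastatin (0.45, adjusted p = 0.0148) and had a value of 0.43 (adjusted p = 0.104) with vehicle. Between the treatments themselves its log2 fold change was -0.00088.

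**Figure D4:**
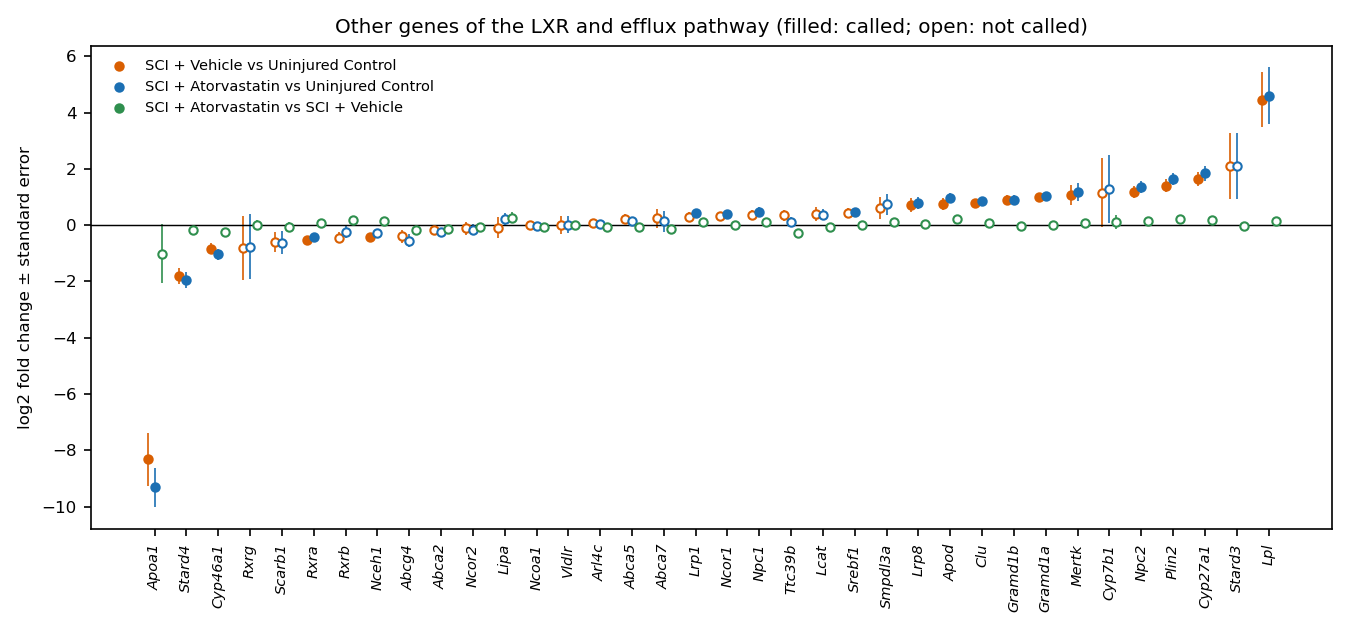
The log2 fold change from edgeR (y axis, bars of 1 standard error) of 36 other genes of LXR signalling and sterol export, ordered by their value in SCI + Vehicle vs. Uninjured Control (x axis), with filled points for called genes. Ch25h, Gramd1c and Apoc2, without counts in the Uninjured Control mice, are left out. Values run from Apoa1, with 5805 and 1354 counts in those mice, at the low end to Lpl, at 4.45 with vehicle, at the high end.

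Atorvastatin was compared directly with vehicle within injured mice. Here a gene was called if it differed by more than 1.25-fold with an unadjusted p below 0.001. None of the 10 genes was called by edgeR, where 0.106% of all genes tested were (0.087% as higher, 0.0186% as lower), and DESeq2 called 0 as well. Abca1 and Soat1 had an unadjusted edgeR p below 0.05, as had 7.03% of all genes tested (1132 genes), and no gene tested had an adjusted p below 0.05. TPM ranges overlapped between the treatments for all 10 genes, and 0.0373% of all genes tested were higher and 0.0249% lower without overlap.

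Abca1 was the gene with the smallest p of the 10. All 7 SCI + Atorvastatin mice were above the SCI + Vehicle median of 137 TPM and 5 of 7 were above the highest vehicle mouse at 161. By edgeR it was higher with atorvastatin by 0.31 on the log2 scale (0.11 to 0.51 within 2 standard errors of 0.0995), with an adjusted p of 0.680. It was 0.22 (adjusted p = 0.897 from edgeR) without SCI + Vehicle replicate 7. That mouse also had the lowest summed TPM of microglia or macrophage markers (1424) and of endothelial markers (79.1) of the SCI mice, and the highest of neuron markers (3793). The part of these markers in the difference was not tested.

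For Soat1, all 7 SCI + Atorvastatin mice were above the SCI + Vehicle median of 39.3 TPM and 2 were above the highest vehicle mouse. By edgeR the difference was 0.20 on the log2 scale (0.04 to 0.36 within 2 standard errors of 0.0801), with an adjusted p of 0.681. Its unadjusted p was no longer below 0.05 by limma on log2(TPM + 1), nor by edgeR without SCI + Atorvastatin replicate 2 or without SCI + Vehicle replicate 3 or 7. Pltp followed with 0.27 (range -0.01 to 0.55, adjusted p = 0.733 from edgeR).

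The ranges within 2 standard errors of the remaining genes all contained 0. They were -0.11 to 0.23 for Abcg1, -0.03 to 0.31 for Apoe, -0.11 to 0.41 for Mylip and -0.18 to 0.45 for Apoc1. They were wider for Lpcat3, at -0.48 to 0.27, and for Nr1h3, at -0.26 to 0.79, and for Nr1h2 the range was -0.32 to 0.10. These ranges do not show equal levels: those of Nr1h3, Apoc1 and Mylip still hold changes beyond 1.25-fold on the higher side and that of Lpcat3 on the lower side. The median log2 fold change of the 10 genes was 0.15, and that of all genes tested was 0.00.

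None of the 40 other genes was called either, by edgeR or DESeq2. Ttc39b, a gene linked to LXR turnover, had TPM of 20.4 to 29.1 with vehicle and 15.9 to 25.3 with atorvastatin (log2 fold change -0.27, adjusted p = 0.680 from edgeR). Ch25h had TPM of 9.47 to 20.1 and 12.4 to 31.1 (0.54, adjusted p = 0.693 from edgeR). They were the only genes of the list with an unadjusted edgeR p below 0.05. Both overlapped between the treatments.

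Covariation among the 10 genes was measured over injured mice, and its calls depended on the scale: on log2(TPM + 1) in place of log2 CPM, 0 of 45 pairs had an adjusted p below 0.05 and 8 had an unadjusted p below 0.05. Over the 14 SCI mice, with group means removed from log2 CPM, 5 of 45 pairs had a Benjamini-Hochberg adjusted p below 0.05 for Pearson's r by a permutation test within groups, and 0 of 45 for Spearman's rho. Unadjusted, 9 pairs had a p below 0.05 for r and 8 for rho. The 5 pairs joined Abca1 with Mylip, Pltp and Apoe, and Apoe with Mylip and Pltp. For Abca1 and Mylip, r was 0.934 and rho 0.697 (permutation, adjusted p = 0.0113 and 0.116), and for Abca1 and Pltp r was 0.902 and rho 0.789 (permutation, adjusted p = 0.0113 and 0.0508). Without the 2 mice farthest from the median of Abca1, r was 0.757 and 0.720. Within groups, r of Abca1 and Mylip was 0.567 with atorvastatin and 0.991 with vehicle.

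SCI + Vehicle replicate 7 had the lowest TPM of the vehicle group for 8 of the 10 genes, all but Nr1h2 and Nr1h3, and the highest for Nr1h2. Without it 0 of 45 pairs had an adjusted p below 0.05 and 6 had an unadjusted p below 0.05. The r of Abca1 was then 0.803 with Mylip, 0.776 with Pltp and 0.713 with Apoe, while that of Abca1 and Abcg1 went from 0.623 to 0.101. Over the 14 mice, r of Abca1 was -0.47 with Nr1h2 and -0.26 with Nr1h3 (permutation, adjusted p = 0.353 and 0.626).

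**Figure D5:**
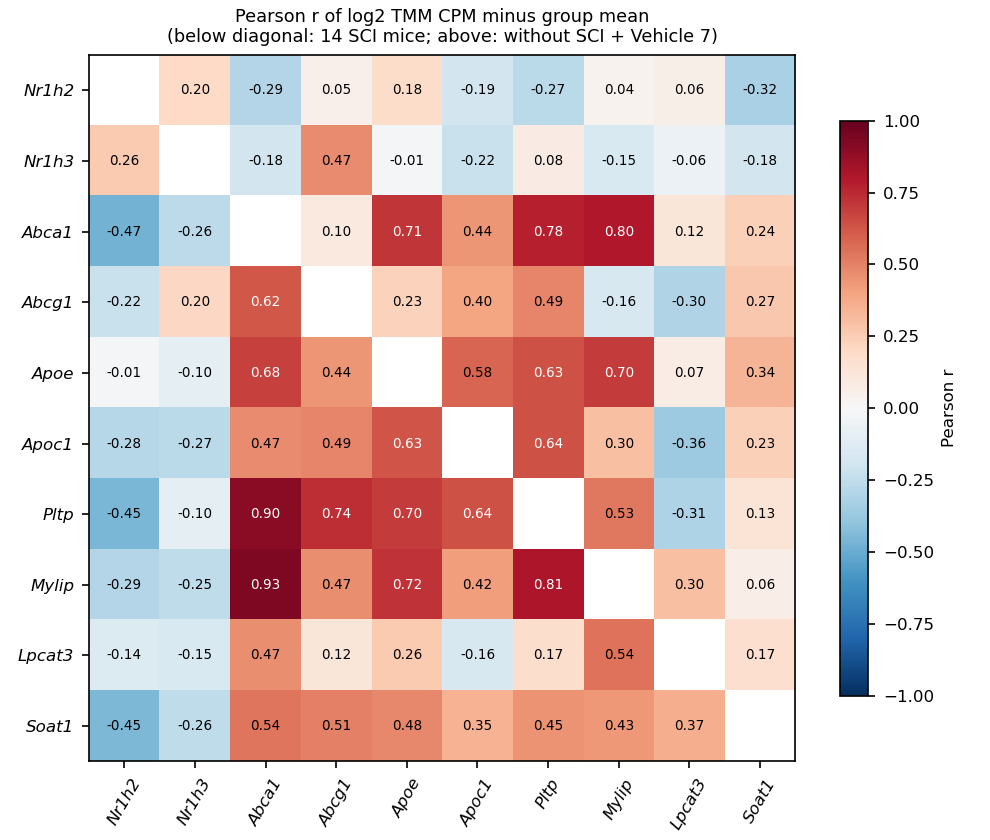
Pearson's r between the 10 genes (rows and columns), from log2 CPM with group means removed, over the 14 SCI mice below the diagonal and without SCI + Vehicle replicate 7 above it, on a colour scale from -1 to 1. Abca1 and Mylip stood at 0.93 and 0.80, Abca1 and Pltp at 0.90 and 0.78, and Abca1 and Abcg1 at 0.62 and 0.10.

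Among all 16091 genes tested, those most like Abca1 over the 14 SCI mice by Spearman's rho, after removal of group means, were Selenbp1 (rho 0.934), Nnt (0.921), Sla (0.916), Atp6v0d2 (0.895) and Cd68 (0.895). For Apoe they were Mnda (0.903), H2-K1 (0.899), Oas1a (0.899), Cd68 (0.895) and Ifi204 (0.895). These are descriptions over 14 libraries that share depth and cell composition, and carry no test. Cd68, a lysosomal protein of microglia and macrophages, was the 1 gene in both sets of 5. Leaving out SCI + Vehicle replicate 7 put the 10 values between 0.868 and 0.918.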

How the data were processed

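Spinal cord RNA of 16 mice was sequenced from stranded total RNA libraries. Per the labels, the submitters' processing notes name FastQC 0.12.1, Trimmomatic 0.38, STAR 2.5.4b and RSEM 1.3.1 with mm10. Deposited by the authors were gene counts as whole numbers, without normalization, and TPM, which the authors corrected for gene length and depth. The step behind the whole-number counts and its strand setting are not given in the sources used here. Groups came from the sample titles.

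Tested were the 16091 genes whose mean TPM exceeded 1 in any of the 3 groups, pair by pair, with edgeR 4.0.16 in R 4.3.3 (TMM, quasi-likelihood test, Benjamini-Hochberg over all genes tested). Cut-offs and gene filter were those of the study, which used DESeq2. Between treatments the study applied its unadjusted p to genes that had also passed the adjusted p against uninjured mice, a condition dropped here, so that all genes tested could be called. Alternatives were DESeq2 1.42.0, its size factors in edgeR, 1 fit of all groups, other gene filters, limma 3.58.1 on log2(TPM + 1) and log2(TPM + 0.1), a block for the replicate number, and each mouse left out in turn. Correlations used 100000 permutations within groups. A count of 0 was read as up to 3 counts, 0.117 to 0.202 CPM by library, which covers counting error only. No 2 libraries of a group agreed within sampling noise. Methods were tested on simulated data. For edgeR these were drawn from the mean profile of the SCI mice. They lacked the added zeros and liver transcripts of the uninjured libraries, and so cannot speak for comparisons with them. Positions are those of GRCm38, with upstream sequences from RefSeq's GRCm38.p6. All 10 genes were named, of the other 40 those called or with an unadjusted p below 0.05 (1 of them is counted but not reported here), and the 5 genes most like Abca1 and Apoe. The 10 genes and all lists, with markers of microglia or macrophages, lipid-laden macrophages, astrocytes, oligodendrocytes, neurons, endothelium, fibroblasts, liver, adipose tissue, peripheral nerve and red blood cells, were chosen with earlier results of these data known.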

Additional observations from a re-analysis of the deposited data

Results flagged for a closer look

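In 28 sets of 7 mice, made of the 10 genes and 4 TPM ratios in each SCI group, a mouse was marked where its gap to the nearest other passed Dixon's 95% limit as a share of the whole range, which chance exceeds in about 1 of 20 sets. There were 3 marks, all for the lowest TPM of SCI + Vehicle replicate 7. Abca1 was 79.97 there against 132 in the next mouse, Abcg1 was 42.2 against 56.7, and Mylip was 28.75 against 50.5. The 3 values belong to the same library, and no SCI + Atorvastatin mouse was marked.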

How the results depend on the processing

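Counts of calls among the 10 genes stayed at 8 with vehicle and at 8 or 9 with atorvastatin under DESeq2, its size factors, 1 fit of all groups, the gene filters, limma and every mouse left out, although the genes within them changed for Apoc1, Pltp and Nr1h3 as given above. With the replicate block, which leaves 1 residual degree of freedom where 2 Uninjured Control mice share numbers with SCI mice, 1 of the 10 and 0 of the 40 other genes were called with vehicle, and 0 and 0 with atorvastatin. Same-numbered mice did not deviate together (correlations of deviations -0.15 to 0.087, and 0 of 7 SCI + Atorvastatin mice correlated best with their own number), so the numbers do not pair them. In the direct comparison of treatments 0 of the 10 and 0 of the 40 were called under every alternative, the replicate block included. The log2 fold change turned for Apoc1 without Uninjured Control replicate 1 (0.70 and 0.86, against -3.43 and -3.28 without replicate 2), for Nr1h3 with atorvastatin against uninjured cord by limma on log2(TPM + 1) and log2(TPM + 0.1) (0.11 and 0.13), and for Lpcat3 between treatments without SCI + Vehicle replicate 1 (0.028, in a range of -0.22 to 0.028 over the mice left out). By limma Apoc1 was not called (-1.28 and -1.15). The cause was not tested. The other 40 genes gave 12 to 24 calls with vehicle and 17 to 28 with atorvastatin outside the block. Over all genes tested, calls ranged from 2398 to 7806 and from 3710 to 9826. The median log2 fold change of all genes was 0.63 and 0.67 without a gene filter, and -0.05 and -0.04 over genes with counts in both Uninjured Control mice, an alternative chosen after seeing the data. The share of higher among all calls moved with it, from 3190 of 4726 to 1348 of 2975 with vehicle, and from 4003 of 6259 to 1889 of 4183 with atorvastatin. The number of correlated pairs was 0 on log2(TPM + 1), 0 within SCI + Atorvastatin alone, 3 within SCI + Vehicle alone, and 0 to 6 with each mouse left out, an alternative added after the correlations were seen. Only 2 uninjured mice limit the precision of every comparison with them.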

Other observations

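Markers of lipid-laden macrophages, a list that holds Lpl, had a summed TPM of 1001 and 1314 in the Uninjured Control mice, 2237 to 3279 with vehicle and 2709 to 3846 with atorvastatin. In each SCI group 6 of 8 markers were higher in every mouse, and Lgals3 was at 0 in both uninjured mice. Of all genes tested, 26.3% with vehicle and 32.3% with atorvastatin were higher in every mouse. SCI + Vehicle replicate 7 had the lowest sum of the SCI mice. Fibroblast markers summed to 118 and 130 in uninjured cord, 63.8 to 713 with vehicle and 463 to 1162 with atorvastatin. Among the vehicle mice, replicates 4 and 7 had 95 and 63.8, and the same 2 mice had the lowest sums of peripheral nerve markers, at 11.9 and 2.22, against 92.5 to 219 with atorvastatin and 229 and 392 in uninjured cord. Oligodendrocyte markers summed to 13313 and 18779 in uninjured cord and 13823 to 19707 in SCI mice, endothelial markers to 103 and 155 against 79.1 to 181, red blood cell markers to 395 and 853 against 60.3 to 3468, and adipose markers to 0 in both uninjured mice against 1.69 to 128 in SCI mice.

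Relative to the summed microglia or macrophage markers, Abcg1 went from 8.76% and 14.7% in uninjured cord to 2.63% to 3.92% in SCI mice, and Soat1 from 7.36% and 10.7% to 1.74% to 2.88%. Both shares were lower in every SCI mouse, as were those of Apoc1, Nr1h2, Nr1h3 and Pltp. Shares of Lpcat3 overlapped, at 0.645% and 1.08% against 0.438% to 1.29%, as did those of Mylip, at 2.40% and 5.58% against 2.02% to 3.51%. Of the 10 markers in this sum, 2 were at 0 in both uninjured mice and 4 in 1 of them. The part of these zeros in the shares was not tested.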
